A study of Mus musculus with 19 samples.

Results

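The baseline population of microRNAs (miRNAs) in hippocampal CA1 of young mice was described from 8 small RNA libraries. The mice were 3 months old and wild type, their strain was labelled C57B/6JRj, and they received only the vehicle, water holding 18 g of cyclodextrin per L. They were chosen by their labels as the young vehicle libraries, 8 of the 19 in the series. The other libraries came from aged mice and were not analysed here, so no comparison between ages or treatments was made. CA1, the hippocampal field whose pyramidal neurons send the main output of the hippocampal circuit, was dissected under a microscope and frozen, so each library holds neurons together with glia, vessels and blood. The sources used here give neither the sex of the mice, the duration of the vehicle treatment nor whether each library is 1 animal, so the spread between libraries may in part be technical. Libraries are called young vehicle 1 to 8, as numbered in the labels.

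A miRNA is cut from a hairpin precursor. The endonuclease Dicer leaves a duplex of the 5p arm, from the left side of the hairpin, and the 3p arm, from its right side, and an Argonaute protein keeps one of them as the guide and releases the other. The guide finds messenger RNAs mainly through its seed, here bases 2 to 8 from its 5′ end, so miRNAs with the same seed form a family with largely shared targets. Many miRNAs are transcribed together from 1 cluster. The imprinted Dlk1-Dio3 region of mouse chromosome 12 holds a large group of miRNAs that is transcribed from the maternal chromosome and active in brain. Values below are shares of the miRNA counts of a library or counts scaled to a total of 1000000 of them (CPM). Adaptor ligation is known to favour some sequences over others, so a share is a share of sequenced reads and not of molecules in the cell.

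The mature sequences behind the main results are given first, 5′ to 3′ with the seed in capitals, from RefSeq for GRCm38.p6. Of the 1148 mature names counted, 925 had a sequence in that table, 34 of them under a newer spelling, and these held 89.2% to 92.9% of the counts of a library. The most abundant miRNAs, whose seeds define most of the population, were these:
miR-127-3p: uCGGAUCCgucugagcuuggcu
miR-181a-5p: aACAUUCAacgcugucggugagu
miR-26a-5p: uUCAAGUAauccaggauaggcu
miR-22-3p: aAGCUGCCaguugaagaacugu
miR-9-5p: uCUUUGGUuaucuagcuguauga
let-7f-5p: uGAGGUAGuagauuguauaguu
miR-128-3p: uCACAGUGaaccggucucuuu
miR-30a-5p: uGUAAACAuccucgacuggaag
miR-27b-3p: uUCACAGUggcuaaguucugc
miR-434-3p: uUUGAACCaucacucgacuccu

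Some of the relatives that share a seed with them, and whose counts are added to theirs in the family totals together with those of other members, were these:
miR-181b-5p: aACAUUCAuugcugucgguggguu
miR-181c-5p: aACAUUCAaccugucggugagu
miR-181d-5p: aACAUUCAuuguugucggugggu
let-7c-5p: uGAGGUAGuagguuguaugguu
let-7i-5p: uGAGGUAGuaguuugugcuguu
let-7a-5p: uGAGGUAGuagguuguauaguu
miR-26b-5p: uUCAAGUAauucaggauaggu
miR-30e-5p: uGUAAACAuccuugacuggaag
miR-30c-5p: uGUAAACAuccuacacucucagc
miR-27a-3p: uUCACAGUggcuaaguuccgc

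The let-7 sequences differ from each other at few bases outside the seed, and so do those of miR-181 and miR-30. The sources used here do not say how a read that matches several of these names was assigned, so the split within a family is less certain than its total. The seeds of miR-27b-3p and miR-128-3p, from different families, hold the same 6 bases in a register shifted by 1 base.

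Reads assigned to miRNAs totalled 3585489 (young vehicle 4) to 6808281 (young vehicle 5) per library, and 680 to 735 names had at least 1 count. Over all 8 libraries 853 of 1148 names were detected, 602 of them in every library, and 295 had no count in any. A name without a count in a library could have held up to 0.441 to 0.837 CPM there, the level of 3 counts, a limit that covers counting error only. No 2 libraries agreed within sampling noise, with a chi-square of 29.4 to 233 times its degrees of freedom over the 28 pairs, so none was treated as a library deposited again. Preparations of 1 animal could differ as much, so this says nothing of whether the libraries came from separate animals. Young vehicle 6 stood apart in many miRNAs, and young vehicle 4 in miR-143-3p, and values without them are given where they matter.

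The population was dominated by few sequences. On the mean over libraries 7 miRNAs held 50% of all counts, 49 held 90% and 182 held 99%. The 10 most abundant took 59.7% ± 1.07 (SD, n = 8) and the top 20 took 74.1% ± 0.558. Only 19 names averaged at least 10000 CPM, 77 at least 1000, 203 at least 100 and 382 at least 10. The abundant set was stable in membership: 18 of the 20 were in the top 20 of every library, and 9 of the top 10 were in every library's top 10.

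The leading miRNA was miR-127-3p, which lies in the Dlk1-Dio3 region opposite the Rtl1 gene (Mir127, chr12:109592846-109592915, plus strand, GRCm38, with no gene on the same strand in GENCODE M21). Its share ran from 13.4% in young vehicle 4 through a median of 14.5% to 16% in young vehicle 8, with a mean of 14.7% ± 1.07. miR-181a-5p, a miRNA known from both T cells and neurons, ran from 12.3% through 13.6% to 16.5%, with a mean of 13.7% ± 1.26. Their ranges overlapped: miR-127-3p ranked first in 5 libraries and miR-181a-5p in young vehicle 2, 4 and 6. Together both took 28.4% ± 1.32 of the counts.

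miR-26a-5p, made from loci within Ctdspl and Ctdsp2, genes of small phosphatases, was in the third place in every library, at 6.56% to 8.10% with a median of 7.14%. The next 5 were miR-22-3p at 4.58% ± 0.270, the neural miR-9-5p at 3.95% ± 0.387, let-7f-5p at 3.57% ± 0.279, the neuron-enriched miR-128-3p at 3.44% ± 0.397 and miR-30a-5p at 3.25% ± 0.179. miR-128-3p comes from 2 loci, both in introns of protein-coding genes by GENCODE M21, R3hdm1 on chromosome 1 and Arpp21 on chromosome 9. miR-27b-3p (2.68% ± 0.217) and miR-434-3p (2.54% ± 0.325), the latter again from the Dlk1-Dio3 region, completed the top 10.

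In eleventh place, miR-143-3p, a miRNA of smooth muscle and mural cells, had a spread unlike that of its neighbours. Its share was 1.57% in young vehicle 5 and 5.07% in young vehicle 4, with a median of 2.09% and a mean of 2.52% ± 1.09. Its rank moved between 4 and 13 accordingly. Below it came miR-191-5p (1.69% ± 0.0971), miR-30d-5p (1.63% ± 0.0591), miR-125a-5p (1.5% ± 0.111), miR-92b-3p (1.47% ± 0.103) and miR-411-5p (1.32% ± 0.103). miR-125b-5p (1.15% ± 0.156), let-7c-5p (1.15% ± 0.0648), miR-29a-3p (1.01% ± 0.0389) and miR-99b-5p (0.972% ± 0.112) closed the top 20.

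**Figure D1:**
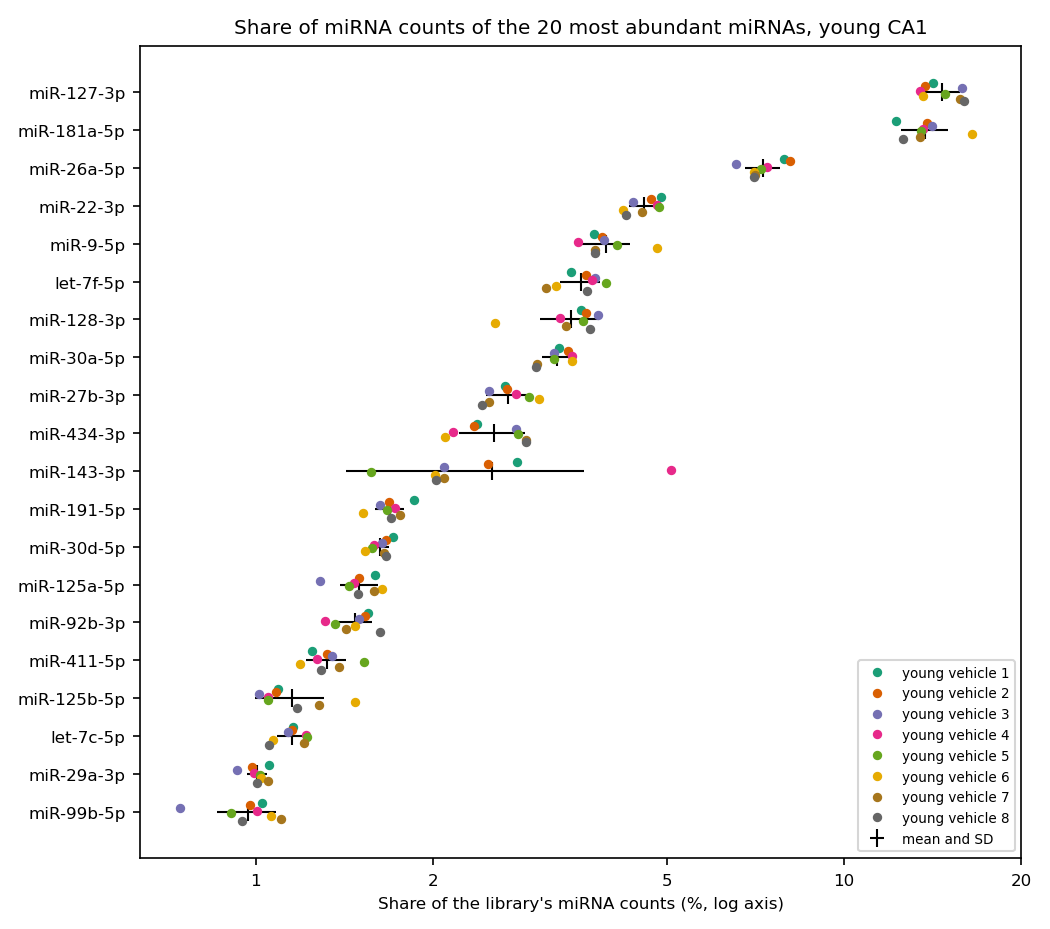
Share of the miRNA counts of each of the 8 young CA1 libraries (x axis, percent, log scale) taken by the 20 miRNAs with the highest mean share (y axis); points are libraries, vertical ticks the mean and horizontal lines the SD. miR-127-3p and miR-181a-5p overlap near 14%, and the miR-143-3p point of young vehicle 4 lies at 5.07%, away from the other 7 libraries.

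The order of neighbours in this ranking was tested within libraries by an exact two-sided sign-flip permutation test over the 8 libraries. Benjamini-Hochberg adjustment was over the 19 pairs. The pairs and their direction were set by the mean shares of these same libraries, so every mean difference is positive by construction. A pass is therefore not separate support for the order. The test also takes the libraries as independent, and whether each is 1 animal is not known. With 8 libraries the smallest p is 0.0078125. In 4 pairs, or 21.1% of those tested, the upper miRNA was higher in 8 of 8 libraries and the difference passed (exact permutation test, adjusted p = 0.0371 in each). These were miR-181a-5p over miR-26a-5p (6.45 percentage points ± 1.5, SD), miR-26a-5p over miR-22-3p (2.71 ± 0.380), miR-30a-5p over miR-27b-3p (0.568 ± 0.152) and let-7c-5p over miR-29a-3p (0.145 ± 0.0702). The other 15 pairs did not pass the adjustment, which does not show that they were equal: 6 of them had an unadjusted p under 0.05. One of these was miR-22-3p over miR-9-5p, at 0.631 percentage points ± 0.570 and higher in 7 of 8 libraries (exact permutation test, adjusted p = 0.0825). miR-127-3p exceeded miR-181a-5p by 0.935 percentage points ± 1.93, in 5 of 8 libraries (exact permutation test, adjusted p = 0.309). Without young vehicle 6 the number of pairs that passed was 7, and it was 6 without young vehicle 5 and 0 without any one of the other 6 libraries. With 7 libraries the smallest p is 0.015625, which passes the adjustment only where at least 6 pairs reach it. At an unadjusted p under 0.05, 6 to 8 pairs passed in these 6 sets of 7 libraries.

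Counts were concentrated in names that start with U. Names that start with U made up 35% of the 925 names with a sequence and 66.0% ± 0.994 of their counts (SD, n = 8). Those that start with A made up 28.5% of names and 28.1% of counts, those with C 22.4% and 4.91%, and those with G 14.1% and 0.936%. A U at the first position is known to be favoured by the pocket of Argonaute that holds the 5′ end of a guide. Of the 18 top 20 names with a sequence, 14 start with U, while miR-181a-5p and miR-22-3p start with A and miR-191-5p and miR-99b-5p with C. Of the 177 names with a sequence and at least 100 CPM, 48.6% start with U. Mature sequences of 22 bases held 59.9% ± 1.14 of the counts and those of 23 bases 23.8% ± 1.43.

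Part of the population cannot be traced to 1 place in the genome. The 73 names made from 2 or more precursor loci held 39.2% ± 1.17 of the counts, and 7 of the top 20 were among them: miR-181a-5p, miR-26a-5p, miR-9-5p, let-7f-5p, miR-128-3p, miR-125b-5p and let-7c-5p. The 1047 names with 1 locus held 60.8% ± 1.17. Some reads also stand under more than 1 name. miR-486-5p and miR-3107-5p held 0.302% and 0.301% of the counts and differed by at most 0.536% of their count in any library. let-7a-1-3p and let-7c-2-3p, identical in the table, were equal in 6 of 8 libraries.

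The 5p to 3p arm ratio was then computed for each hairpin, since both arms are cut from the same precursor and measured in the same library. For a hairpin name with several loci, each arm is a sum over them. For 231 of 462 hairpin names with both arms listed, the arms together averaged at least 100 counts. An arm was called dominant where it was higher in all 8 libraries and at least 2-fold higher on average. The 5p arm was dominant in 102, the 3p arm in 102, and 27 were neither. The dominance was often steep, at least 10-fold in 155, 100-fold in 94 and 1000-fold in 32. In 220 of 231 the same arm was higher in all 8 libraries. The 5p arms of the population held 56.2% ± 1.34 of all counts and the 3p arms 43.7% ± 1.33, so the equal number of dominant arms went with an excess of 5p counts.

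The steepest 5p ratios were those of miR-26a, miR-541, miR-192, miR-146a, miR-204, miR-181d, miR-182 and miR-186. miR-26a-5p stood at 72864 CPM ± 5013 against 5.41 ± 1.35 for its 3p arms, a mean log2 ratio of 13.73 ± 0.31 (SD, n = 8). The ratio of miR-541, from the Dlk1-Dio3 region, was 13.21 ± 0.42, that of miR-192 12.37 ± 0.54 and that of the choroid plexus miRNA miR-204 11.64 ± 0.69. miR-192-5p made up 99.96% of its precursor cluster, which also holds miR-192-3p, so the miR-192 ratio rests on few counts of the minor arm. miR-146a-3p and miR-182-3p had no count in any library, so miR-146a-5p was at least 5678-fold and miR-182-5p at least 3020-fold higher, against 3 counts over the 8 libraries. In 9 of the 231 hairpins an arm had no count in any library, 7 of them among the 32 past 1000-fold, and their log2 ratio is set by the 0.5 added to each count and cannot be ranked against the measured ones.

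The steepest 3p ratios were those of miR-101b, miR-143, miR-103, miR-410, miR-92b, miR-23b, miR-328 and miR-130a. miR-101b-3p (1270 CPM ± 71.7) was at least 18458-fold higher than its 5p arm, which had no count in any library. miR-143-3p stood at 25173 CPM ± 10910 against 2.0 ± 1.18 for miR-143-5p, a log2 ratio of -13.66 ± 0.66. The log2 ratio of miR-103, a miRNA of a pantothenate kinase intron, was -13.27 ± 0.90 and that of miR-92b -12.88 ± 0.61. The minor arms of miR-103, miR-23b, miR-328 and miR-130a had 0 to 3 counts per library, so where the count was 0 the added 0.5 sets the ratio, and the SD includes that counting error.

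For several of the most abundant miRNAs the minor arm was well detected. The other arm of miR-181a (log2 ratio 6.96 ± 0.05) stood at 1105 CPM ± 136 and that of miR-9 (5.64 ± 0.21) at 789 CPM ± 56.0. miR-9-3p, also called miR-9*, has known targets of its own in neural cells. For miR-30a (5.37 ± 0.05) the other arm stood at 786 CPM ± 36.4, and for miR-127 (-8.08 ± 0.16) at 544 ± 58.9. The arms were closest for miR-125b at 2.87 ± 0.16 and for miR-434 at -3.42 ± 0.22, where miR-434-5p reached 2373 CPM ± 220. At the other end, miR-22 (-11.11 ± 0.11) had 20.7 CPM ± 2.24 on its 5p arm.

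The 8 hairpins nearest to equality were miR-666, miR-770, miR-376b, miR-7a, miR-877, miR-345, miR-1298 and miR-130b, with mean log2 ratios from -0.22 to 0.18. For miR-666, from the Dlk1-Dio3 region, the arms stood at 245 CPM ± 43.7 and 235 ± 26.7, with 5p higher in 5 of 8 libraries. For miR-7a the ratio ran from -0.24 in young vehicle 4 to 0.86 in young vehicle 8, the widest range of the 8. The ratios of miR-1298 and miR-130b were small but negative in every library. For miR-126 of endothelial cells the 5p arm led, with 8986 CPM ± 1457 against 1236 ± 206 for miR-126-3p and a log2 ratio of 2.86 ± 0.09, named here after its values were seen.

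**Figure D2:**
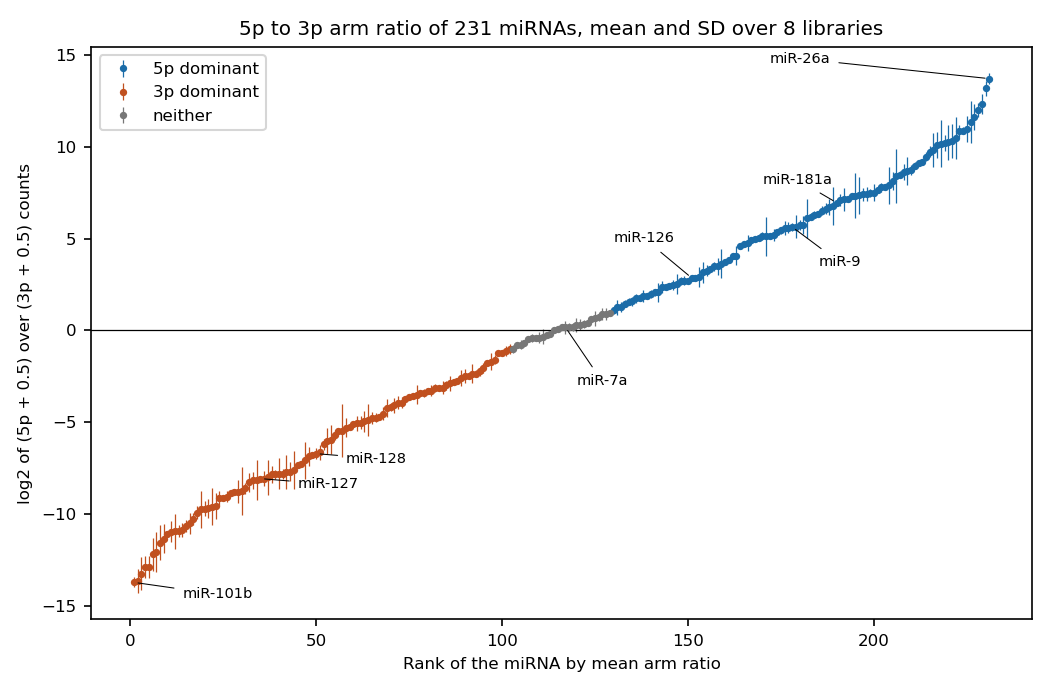
Mean log2 ratio of 5p over 3p counts (y axis, 0.5 added to each count) of 231 hairpins in order of that ratio (x axis); points are means and bars the SD over 8 libraries, and the colours mark the dominant arm. Where both arms had counts the ratios run from -13.66 for miR-143 to 13.73 for miR-26a, with 27 hairpins near 0 in neither class; the 9 with an arm at 0 in all libraries, miR-101b among them, are placed by the added 0.5.

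Arm ratios varied little between libraries. For the 121 hairpins with both arms at 10 CPM or more, the SD of the log2 ratio had a median of 0.177, against 0.232 expected from the SDs of the arms if they varied independently, and it was below that value in 89. miR-181a is an example: its 5p arm was high in young vehicle 6 (164730 CPM against 133432 ± 6588 in the other 7), and its 3p arms were high there too (1404 against 1063 ± 68.4). The first base differed between the arms. Of 75 dominant 5p arms whose partner also had a sequence, 57.3% started with U, against 20.0% of the partners. Of 72 dominant 3p arms 48.6% did, against 12.5% of the partners.

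Summed by seed, or by name where no sequence was in the table, 5 families held 50% of the counts, 31 held 90%, and the 12 largest held 74.1% ± 0.722. The miR-181 family was the largest at 15.3% ± 1.33, with a range of 13.7% to 18.2% and the top value in young vehicle 6. miR-181a-5p made up 89.7% ± 0.436 of it, miR-181b-5p 6.18%, miR-181c-5p 3.34% and miR-181d-5p 0.770%. miR-127-3p, with no relative of its seed among the names with a sequence, formed the second by itself at 14.7%.

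The let-7 family, known for restraining growth and stem-cell genes and abundant in differentiated tissue, was the third at 7.75% ± 0.282, with 9 of 10 members detected. Its counts were shared more evenly: let-7f-5p held 46.0% ± 2.09 of them, let-7c-5p 14.9%, let-7i-5p 12.5% and let-7a-5p 10.1%. The miR-26 family followed at 7.50% ± 0.514, of which miR-26a-5p was 97.1%. The miR-30 family took 6.45% ± 0.157, split into miR-30a-5p (50.4% of it), miR-30d-5p (25.3%), miR-30e-5p (14.4%), miR-30c-5p (7.83%), miR-30b-5p (1.24%) and the brain-enriched miR-384-5p (0.862%).

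Adding members lowered the spread for some families and not for others. The coefficient of variation (CV, SD over mean) of the miR-30 total was 2.43%, below the 5.51% of miR-30a-5p, its leading member. That of the let-7 total was 3.64%, below the 7.83% of let-7f-5p. For miR-181 the total (8.71%) varied about as much as miR-181a-5p (9.20%), which is most of it. The miR-27 family (2.73% ± 0.217) was 98.2% miR-27b-3p, and the miR-125 family (2.69% ± 0.250) held 56.0% miR-125a-5p and 42.8% miR-125b-5p. miR-22-3p, miR-9-5p, miR-128-3p and miR-434-3p had no detected relative of their seed among the names with a sequence. miR-143-3p had no sequence in the table and was kept under its own name, so whether it has a relative by seed was not tested.

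**Figure D3:**
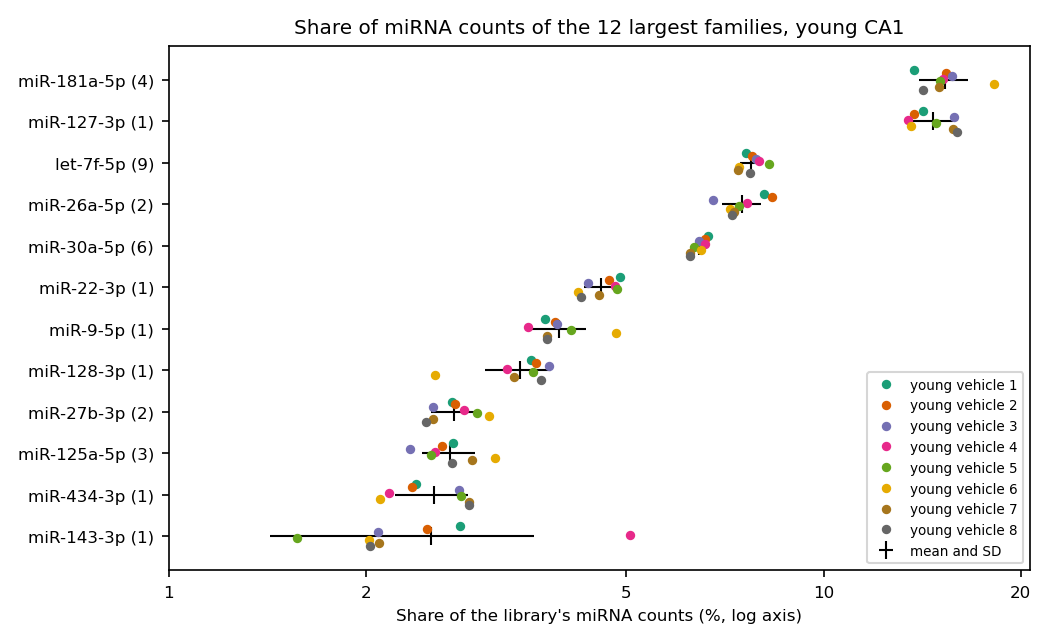
Share of the miRNA counts of each of the 8 libraries (x axis, percent, log scale) held by the 12 largest families (y axis, named by the leading member, with the number of detected members in parentheses); points are libraries, ticks the mean and lines the SD. The miR-30 points lie between 6.24% and 6.65%, while those of miR-143-3p run from 1.57% to 5.07%.

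By position, names with 1 precursor locus were joined into clusters where precursors on 1 strand lay within 10 kb of each other. The 60 clusters held 40.7% ± 1.24 of the counts. These totals leave out names with more than 1 locus, among them miR-181a-5p (13.7% of all counts) and miR-181b-5p (0.944%). The clusters of their precursors kept only the other arms, at 0.0894% and 0.0228%, so their place in the ranking is not known. Among the totals so counted, both leading clusters lay in the Dlk1-Dio3 region. The first (chr12:109563692-109595388, plus strand, GRCm38) runs from Mir770 to Mir136, and its 27 names, 26 of them detected, took 18.5% ± 1.43 of all counts. miR-127-3p made up 79.1% of this cluster, ahead of miR-434-3p, miR-136-3p (6424 CPM ± 590) and miR-434-5p. The second (chr12:109709060-109747960) runs from Mir379 to Mir3072, and its 75 names took 4.76% ± 0.315.

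The second cluster was less concentrated, with 27.8% of its counts in miR-411-5p. miR-410-3p followed at 9657 CPM ± 1307, miR-541-5p at 8866 ± 1514 and miR-381-3p at 4138 ± 395. Both clusters were highest in young vehicle 8 (20.3% and 5.24%) and lowest in young vehicle 4 (16.8% and 4.34%).

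The next clusters were smaller by this count. Their totals leave out names with 2 or more loci, such as miR-24-3p (941 CPM) and miR-30c-5p (0.505% of counts). Mir23b, Mir27b and Mir24-1 on chromosome 13 took 2.75% ± 0.220, nearly all miR-27b-3p, with miR-23b-3p at 614 CPM ± 43.8. Mir99b, Mirlet7e and Mir125a on chromosome 17, in the annotated gene Spaca6, took 2.70% ± 0.208 and were mixed, with miR-125a-5p, miR-99b-5p and let-7e-5p (2176 CPM ± 175). The miR-143 and miR-145 cluster took 2.53% ± 1.09, of which 99.5% was miR-143-3p, and 2.16% ± 0.386 without young vehicle 4. Mir191 with Mir425 (1.74% ± 0.104), Mir30b with Mir30d (1.72% ± 0.0611) and Mir30c-1 with Mir30e (1.08% ± 0.0368) were led by miR-191-5p, miR-30d-5p and miR-30e-5p. miR-425-5p stood at 401 CPM ± 59.8 and miR-30b-5p at 801 ± 49.4.

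The labelled tissue was checked against lists of cell type markers. All 14 neuron-enriched miRNAs of the list were detected in every library, at a summed 94590 CPM ± 3539, from 87936 to 98745. miR-9-5p and miR-128-3p led it, and miR-124-3p, the classic neuronal miRNA, stood only at 5465 CPM ± 403, rank 33. miR-153-3p (3381 ± 143) was next. None of these lists separates CA1 from other hippocampal fields. Of the 4 members of the pluripotent list, miR-302a-3p, miR-294-3p and miR-295-3p had no count in any library, and miR-302b-3p had 1 count in young vehicle 1 (0.182 CPM) and none elsewhere. Of the posterior Hox miRNAs, miR-196b-5p had no count in any library and miR-196a-5p had 1 in young vehicle 2 (0.171 CPM) and none elsewhere.

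Other cell types of the tissue were visible at lower levels. Oligodendrocyte miRNAs summed to 3725 CPM ± 292, led by miR-338-3p (2938 ± 274) and miR-219-2-3p (519 ± 49.6). Those of microglia and myeloid cells summed to 2984 ± 244, of which miR-21-5p, also made by other cells, was 2261 ± 272, while miR-223-3p stood at 5.47 ± 3.00. The lymphocyte miRNA miR-150-5p stood at 677 ± 36.7. The erythrocyte list summed to 3153 ± 324, nearly all miR-486-5p, and miR-451, abundant in red cells, stood at 95.4 ± 16.9. In tissue, fewer cells of a type and less RNA per cell cannot be told apart.

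Vessel, choroid plexus and epithelial miRNAs were present too. The endothelial and mural list summed to 35518 CPM ± 11676, from 25159 in young vehicle 5 to 61819 in young vehicle 4, and to 31761 ± 5224 without the latter. Most of this sum was miR-143-3p, at 25173 ± 10910 on the mean and 50704 in young vehicle 4. The choroid plexus and ciliated epithelium list summed to 3401 ± 583, from 2462 to 4245. In it miR-204-5p stood at 2949 ± 497, miR-34c-5p at 308 ± 126 and miR-1298-5p at 101 ± 20.4. Its members miR-211-5p (7.09 ± 1.53) and miR-449a-5p (3.95 ± 0.721) were low. The epithelial list summed to 389 ± 43.4, led by miR-429-3p (182 ± 22.9). The sensory list stood at 227 ± 114, the Hox list at 284 ± 132 and the endocrine list at 135 to 322. Muscle miRNAs summed to 83.4 ± 18.5, with miR-133a-3p at 79.2 ± 17.5. The liver miRNA miR-122-5p stood at 0.503 ± 0.211.

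The spread between libraries was measured as the biological coefficient of variation (BCV), the variation that edgeR estimates beyond counting error, for the 457 miRNAs that passed a filter on low counts. The common BCV was 14.1%, and the median over the 203 miRNAs with a mean of at least 100 CPM was 11%. The observed CV exceeded counting error in all 203. edgeR draws each value toward a trend, so the plain CV after TMM scaling is given beside it.

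The least variable were miR-103-3p (BCV 7.23%, CV 2.52%), miR-30d-5p (7.26% and 2.93%), miR-30e-5p (7.35% and 3.19%), miR-30c-5p (7.43% and 3.33%) and let-7i-5p (7.49% and 3.69%). miR-153-3p, miR-29a-3p, miR-191-5p, miR-186-5p and miR-125b-2-3p followed, with CVs of 3.63% to 4.95%. miR-103-3p ran only from 3284 to 3486 CPM, with a mean of 3368 ± 75.8. Of these 10, 3 were of the miR-30 family and 1 of let-7.

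The most variable was miR-10b-5p, a Hox-cluster miRNA that is low in forebrain, with a BCV of 59.9% and a CV of 72.2%. It ran from 23.5 CPM in young vehicle 5 through a median of 111 to 373 in young vehicle 4, with no single library apart by the gap to the next. miR-10a-5p, its relative with the same seed, ran only from 94.7 to 151. miR-10b-5p and its relative have these sequences, shown because their levels parted:
miR-10b-5p: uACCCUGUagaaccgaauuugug
miR-10a-5p: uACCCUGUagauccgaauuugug

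Next came miR-182-5p of sensory cells (BCV 36.9%), which was 437 CPM in young vehicle 2 and 119 to 270 elsewhere, with 23.5% without young vehicle 2. miR-183-5p of the same cluster was also highest there, at 46.4 CPM against 11.9 to 24.7. The ciliated-cell miRNA miR-34c-5p (31.2%) stood at 492 and 508 CPM in young vehicle 1 and 2 and at 187 to 325 in the other 6. miR-34b-5p of the same cluster followed it, with 23.0 and 20.7 against 7.64 to 15.1. miR-375-3p (25.5%), an endocrine miRNA, ran from 92.1 to 210.

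miR-143-3p, with a BCV of 30.2%, was the only one of the 10 most variable with a mean above 1000 CPM, and its BCV was 15% without young vehicle 4. The remainder rested on 1 library each or on a few. Without young vehicle 6 the BCV of miR-411-3p was 10.7% instead of 21.9%, and that of miR-384-5p 9.40% instead of 20.2%. Without young vehicle 8 that of miR-298-5p, an imprinted miRNA, was 10.6% instead of 21%. miR-370-3p (24.1%) and miR-335-3p (19.5%) completed the 10.

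**Figure D4:**
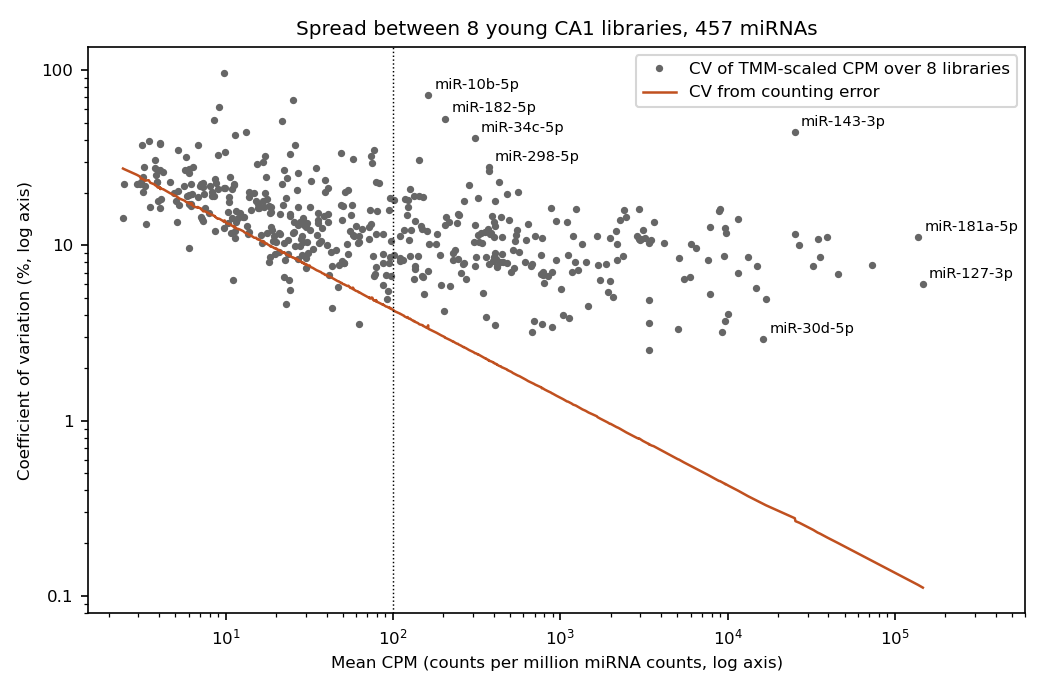
Coefficient of variation over the 8 libraries (y axis, of TMM-scaled CPM, percent, log scale) against mean CPM (x axis, log scale) for 457 miRNAs; grey points are miRNAs, the line is the CV that counting error alone gives, and the dotted line marks 100 CPM. The 203 miRNAs right of it all lie above the line, miR-10b-5p is the highest of them at 72.2%, and miR-143-3p at 44.5% stands out among the abundant.

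Young vehicle 6 differed from the other libraries in many miRNAs at once, and in both directions. Over the 203 miRNAs with at least 100 CPM it was the highest of the 8 for 49 and the lowest for 60. Other libraries also had many extremes, mostly in 1 direction: young vehicle 8 was the highest for 47 and the lowest for 7, young vehicle 1 the highest for 43 and the lowest for 11, and young vehicle 4 the lowest for 51 and the highest for 8. The median distance from the other 7 libraries was 0.164 on the log2 scale for young vehicle 6 and 0.0739 to 0.127 for each of the others. By the Dixon ratio (the gap between an extreme library and the nearest other, over the whole range, above 0.526), 22 of 203 miRNAs had a library that stood apart, and this was young vehicle 6 in 16, young vehicle 8 in 4 and young vehicle 4 and 5 in 1 each. Chance flags about 1 in 20 such groups. The total of young vehicle 6, 5159098 counts, was within the range of the others.

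Its position also showed in the arm ratios, in which depth and the number of precursors cancel. Of 121 ratios with both arms at 10 CPM or more, 21 had a library that stood apart, and 16 of them were young vehicle 6 (12 as the highest and 4 as the lowest). Its median distance from the other libraries was 0.249 on the log2 scale, against 0.10 to 0.149 for each of the other 7. For miR-128 its log2 ratio was -6.02, against -6.88 to -6.76 elsewhere. There miR-128-3p stood at 25545 CPM against 35689 ± 1844 in the other 7 (SD, n = 7), while the 5p arms stood at 394 against 317 ± 24.8, so the arms moved in opposite directions.

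The same held for miR-9, with miR-9-5p at 48141 CPM against 38233 ± 1766 and miR-9-3p at 716 against 799 ± 51.4. In miR-384 the 5p arm stood at 286 against 593 ± 55.3. Its 3p arm, at 238 against 226 ± 22.8, was within the range of the others (195 to 259). Opposite directions were not the rule: both arms of miR-30b were low, at 728 against 811 ± 42.7 (5p) and 6.20 against 16.6 ± 2.86 (3p). miR-370-3p stood at 189 against 398 ± 84.6 while miR-370-5p stood at 123 against 109 ± 9.72. For miR-181a both arms were high and the log2 ratio ran only from 6.87 to 7.01 over all 8 libraries. No batch is given in the labels, and what sets young vehicle 6 apart was not tested. Over 177 miRNAs with a sequence, its deviation had a correlation of 0.0763 with GC content. In the other libraries this ran from -0.0763 (young vehicle 4) to 0.219 (young vehicle 8). These values are across miRNAs, which are not independent replicates, and are not a test of a cause.

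**Figure D5:**
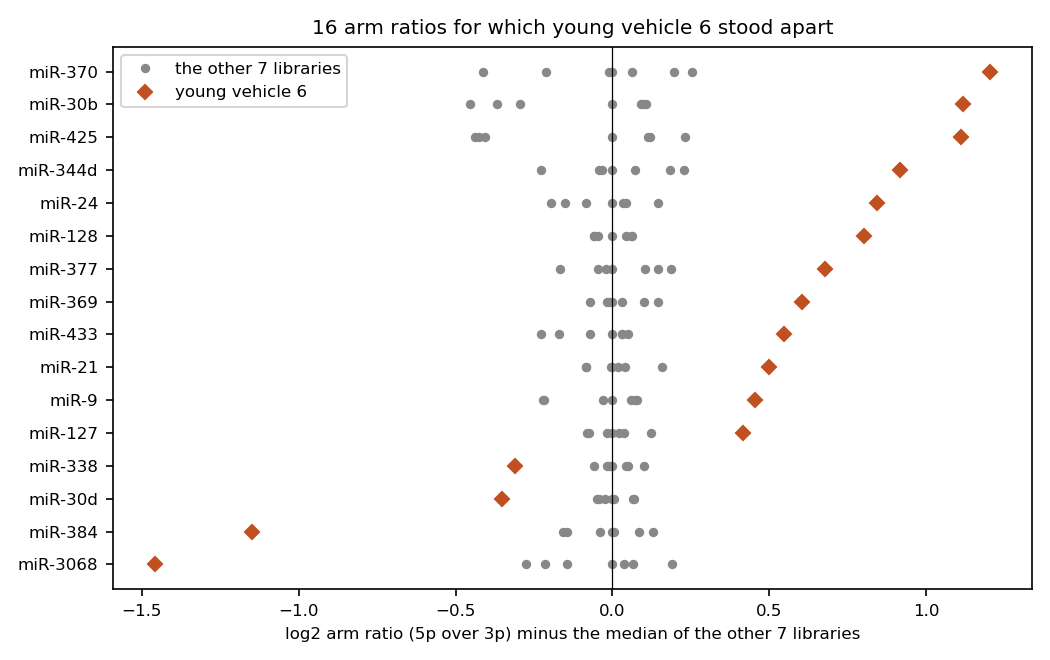
log2 ratio of 5p over 3p counts in each library minus the median of the 7 libraries other than young vehicle 6 (x axis) for the 16 hairpins whose ratio in young vehicle 6 stood apart (y axis); diamonds are young vehicle 6 and circles the others. By the choice of these hairpins the diamonds lie beyond every circle of their row, above for 12 hairpins and below for 4.

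Leaving young vehicle 6 out changed the means little for the leading miRNAs in which it stood apart. Their spread fell, which follows from that choice, and the other leading miRNAs are not shown here. The share of miR-181a-5p was then 13.3% ± 0.659 (SD, n = 7), that of miR-9-5p 3.82% ± 0.177 and that of miR-128-3p 3.57% ± 0.184, against SDs of 1.26, 0.387 and 0.397 over all 8 libraries. The log2 arm ratio of miR-128 was -6.82 ± 0.06 without it, against -6.72 ± 0.29 over all 8.

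Young vehicle 4 was the shallowest library and stood apart by the Dixon ratio in miR-143-3p alone of the 203, at 50704 CPM against 15724 to 27826 elsewhere. Without standing apart by that ratio, it also had the highest miR-145-5p (93.7 against 38.0 to 65.6) and miR-199a-3p (77.0 against 43.6 to 62.2). It was also the highest of the 8 for miR-10b-5p, miR-10a-5p and miR-133a-3p, and for miR-214-3p at only 3.07 CPM. The endothelial miR-126-5p was not raised with them: it stood at 9605 CPM there, within the range of 6039 to 10810 of the other 7. Of the same marker lists, miR-199b-5p (0.558 CPM), miR-1a-3p (5.02) and miR-206-3p (0) were among those not highest there. The neuron list was lowest in young vehicle 4, at 87936 CPM. The part of vessel tissue in these values was not tested.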

How the data were processed

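The authors deposited 1 table of raw counts per library, a whole number for each of 1148 mature miRNA names, with 4 summary lines that were 0 in every library and were left out. Per the submitters' processing notes, the tools were HTSeq, STAR, cutadapt and CASAVA 1.8.2 on the build mm10. Settings and annotation release are not given in the sources used here. Per the labels' protocols, total RNA from Tri reagent was treated with DNAse I and made into TruSeq libraries. Reads carry no molecular identifiers, so intervals and limits cover counting error only. Totals were 3585489 to 6808281 counts per library.

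From the counts, shares and CPM of the raw total were computed per library, with mean and SD over the 8 young vehicle libraries. Arm ratios are log2 with 0.5 added to each count, over copies of a name. Families join names with the same bases 2 to 8 in RefSeq (GRCm38.p6). Of names without a sequence, 6 joined the family of their name and the others were kept by name. Clusters join precursors within 10 kb. Spread is the tagwise BCV of edgeR 4.0.16 (R 4.3.3) with an intercept only, TMM scaling and filterByExpr (457 names kept), tested on simulated data. Neighbouring ranks, set by the means of these same libraries, were compared by exact sign-flip tests. Tables used Python 3.11.15 and pandas 2.3.3.

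The members, marker lists and tests were chosen with earlier results of these data known. The naming rule took the top 20, up to 4 members per marker list and those at 0, the 8 highest, 8 lowest and 8 most equal arm ratios, the 12 largest families, 8 largest clusters, and the 10 most and 10 least variable miRNAs at 100 CPM or more. Named outside it, after their values were seen, were miR-199a-3p, miR-199b-5p, miR-214-3p, miR-223-3p, miR-24-3p, miR-34b-5p, miR-3107-5p, let-7a-1-3p and let-7c-2-3p. So were miR-211-5p, miR-449a-5p, miR-141-3p, miR-205-5p, miR-200c-3p and the arms of miR-126, miR-384, miR-370 and miR-30b. Alternatives were other scalings (TMM, DESeq2 1.42.0 size factors, the top 3 left out of the total), other minimums, pseudocounts, seeds and cluster distances, and each library left out.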

Additional observations from a re-analysis of the deposited data

Results flagged for a closer look

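Values in this section had 1 library farther from the nearest other, relative to the range over all 8 libraries, than the Dixon limit of 0.526. About 1 in 20 groups passes this limit by chance, and the explanation of each was not tested. Over all miRNAs at 100 CPM or more 22 of 203 passed it, and 21 of the 121 arm ratios with both arms at 10 CPM or more.

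Some of the values overlap: miR-181a-5p is most of its family, and miR-9-5p and miR-128-3p enter again through their arm ratios. Young vehicle 6 was the one that stood apart in 11 of the values. It was the highest for miR-181a-5p (16.5% of counts, the others 12.3% to 14.1%), for the miR-181 family (18.2%, the others 13.7% to 15.7%) and for miR-9-5p (4.81%, the others 3.54% to 4.12%). It was the lowest for miR-128-3p (2.55%, the others 3.29% to 3.81%), miR-411-3p (138 CPM, the others 274 to 366) and miR-384-5p (286 CPM, the others 520 to 670). miR-142-5p, a miRNA of blood-derived cells, was highest there at 368 CPM against 297 to 316. Its log2 arm ratios stood apart for miR-127 (-7.71, the others -8.21 to -8.01), miR-9 (6.07, the others 5.40 to 5.70), miR-128 (-6.02, the others -6.88 to -6.76) and miR-30d (7.02, the others 7.33 to 7.44).

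Young vehicle 4 stood apart upward for miR-143-3p (5.07%, the others 1.57% to 2.78%), for the cluster of miR-143 and miR-145 (5.09%, the others 1.58% to 2.80%) and for the endothelial and mural list that holds both (61819 CPM, the others 25159 to 40342). These values are not separate, since miR-143-3p is most of the cluster and of the list. Young vehicle 2 stood apart upward for the sensory list (484 CPM, the others 131 to 289) and for miR-183-5p (46.4 CPM, the others 11.9 to 24.7).

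Young vehicle 8 had the highest miR-298-5p at 652 CPM, against 281 to 372. Young vehicle 5 had the highest miR-338-5p at 244 CPM, against 210 to 220. Young vehicle 7 had the lowest log2 arm ratio of miR-1298, at -0.38 against -0.22 to -0.11.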

How the results depend on the processing

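No paired analysis was possible because only 1 group is described and no groups are compared. Under the alternatives run, the 10 most abundant held 46.4% of counts where the 3 most abundant were left out of the total, against 59.7%, and the number of dominant 3p arms was 60 with a mean of 1000 counts, against 102, where fewer hairpins qualified. The median BCV of 11% was 11.6% with library size only, 10.4% by the DESeq2 dispersion, 9.43% as a plain CV and 9.83% at a mean CPM of 1000, and 10.1% to 11.7% with 1 library left out. The number of neighbouring pairs that passed was 0 to 7 with 1 library left out and 0 without young vehicle 4 and 6, where 6 libraries allow no p below 0.03125. That last choice was made after the data were seen. Among pairs that did not pass, the order turned for miR-434-3p over miR-143-3p (-0.148 to 0.441 percentage points with 1 library left out) and miR-125b-5p over let-7c-5p (-0.0573 to 0.0258, and -0.0075 as a log2 ratio). Without young vehicle 4 and 6 it also turned for let-7f-5p over miR-128-3p (-0.0233), miR-27b-3p over miR-434-3p (-0.0675), miR-125a-5p over miR-92b-3p (-0.0168) and miR-125b-5p over let-7c-5p (-0.0388). The cause was not tested. The largest family, the largest cluster, the number of dominant 5p arms and the number of miRNAs in all libraries stayed within the SD or within 1.5 times under every alternative run for them. Depth limits minor arms with few counts.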
